A study of Mus musculus with 2 samples.

Results

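Rax, Vax1, Vax2, Emx2, Nkx2-1, Fezf1, Fezf2 and Cnpy1 are 8 of the 43346 annotated genes in the deposited tables, and 7 of them encode transcription factors that divide the anterior neural tube into eye, forebrain and hypothalamus. They were chosen by symbol with their measured levels and ratios between the libraries already known, and matched to rows through the gene identifier without its version. All 8 were found. The samples are 2 total RNA sequencing libraries of facial prominences, the swellings of mesenchyme and ectoderm around the embryonic mouth, of B6NCrl mouse embryos aged 11.5 days. Library 1 came from 109 pooled embryos and library 2 from 88, each pool of mixed sex and healthy, and 10 ng of RNA above 200 nt, with spike-ins added, entered each library. Both libraries belong to the same group, so no condition is compared, each ratio sets 1 pool against the other, and no p-value was computed.

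The eye field is the patch of anterior neural plate from which both eyes grow, and Rax is required to form it. The optic vesicle then pushes out of the forebrain, the optic stalk keeps them joined, and Vax1 and Vax2 set the ventral identity of stalk and retina. Behind and around it Emx2 patterns the cortex, Nkx2-1 the basal forebrain and hypothalamus, and Fezf1 and Fezf2 the rostral forebrain. A dissected face lies against eye, forebrain, pituitary and olfactory pit, and most of these genes are best known from that neighbouring neural tissue rather than from facial mesenchyme.

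Expected counts, called reads below, on annotated genes came to 28627217 in library 1 and 29281440 in library 2, with spike-ins at 15.4% and 15.8% of TPM. TPM is transcript abundance per effective length, scaled to a fixed total per library. The labelled tissue was present in both, with 8 of 8 facial mesenchyme markers at 1 TPM or more in each library. Their summed level was 814 TPM in library 1 and 846 TPM in library 2. The 8 neural regulators together summed to 45.5 and 51.8 TPM. The labels call the libraries separate biological replicates.

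All 8 regulators were transcribed at a low level in both pools. Each reached 1 TPM or more in both libraries, as did 58.5% of 21474 protein-coding genes, and their values ran from 1.51 to 12.8 TPM. The median of their mean levels was 6.50 TPM, against 3.45 TPM over protein-coding genes and 16.0 TPM over the 13866 genes detected in both libraries. By mean level the order was Nkx2-1, Rax, Emx2, Fezf1, Cnpy1, Vax2, Fezf2 and Vax1. In this order each gene's range over the 2 libraries overlapped that of the next, except that Fezf2 (2.72 to 3.34 TPM) lay above Vax1 (1.65 to 1.93 TPM). The order was not shared by the pools. Rax ranked 1 in library 1 and 4 in library 2, while Nkx2-1 ranked 5 and 1, Cnpy1 7 and 2, and Vax2 4 and 8.

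**Figure D1:**
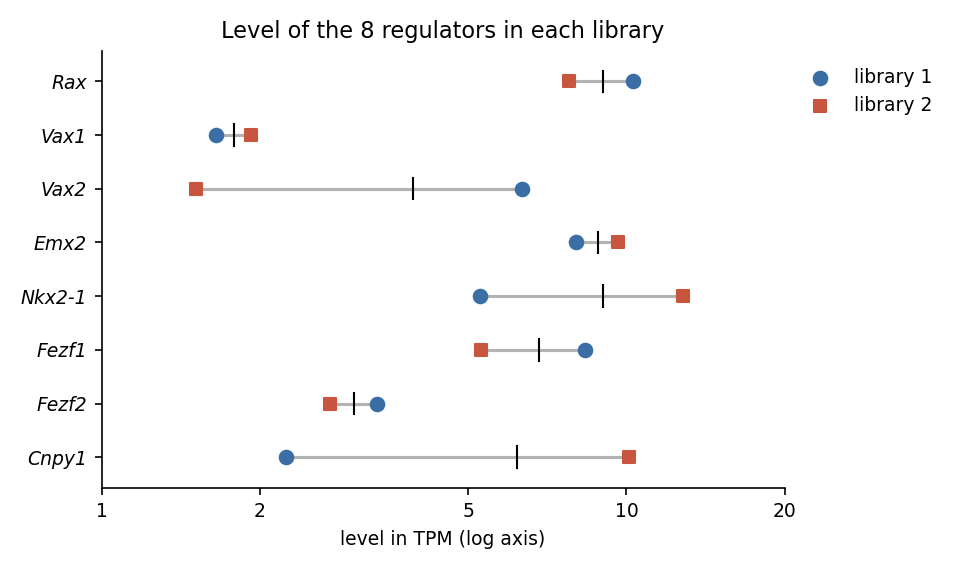
Level of each of the 8 genes in TPM on a log axis, with circles for library 1, squares for library 2 and a vertical bar at the mean of both. Vax2 lies far to the right in library 1, Nkx2-1 and Cnpy1 in library 2, and the points of Vax1, Fezf2 and Emx2 stay close together.

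The pools differed at least 2-fold for 3 of the 8 genes, 1 higher in library 1 and 2 higher in library 2. The rule was a ratio of 2 or more between counts scaled by TMM, with at least 50 counts over both libraries and a mean of 1 TPM, and all 8 genes passed that filter. Of all 13739 genes that passed it, 1.3% differed so, 0.801% toward library 1 and 0.495% toward library 2. Among the 7608 of these at a mean of 1 to 20 TPM, where the 8 genes lie, the share was 2.18%. At 1.5-fold the count was 4 of 8, against 4.56% of all genes. By the Clopper-Pearson method, an exact interval for how the reads divide between libraries, a ratio of 1 was excluded for 6 of 8, against 43.6% of all genes. These ratios were known when the genes were listed, so the counts describe them and support nothing further. By direction alone, 4 were higher in library 1 and 4 in library 2, where 48.4% of all genes were higher in library 1. The median log2 ratio of the 8, library 2 over library 1, was -0.01, against 0.01 over all genes past the filter. Intervals in brackets after ratios are at 95% and hold counting error alone, not the variation between pools. No molecular identifiers are mentioned, and where PCR copies count as separate reads the intervals are too narrow.

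**Figure D2:**
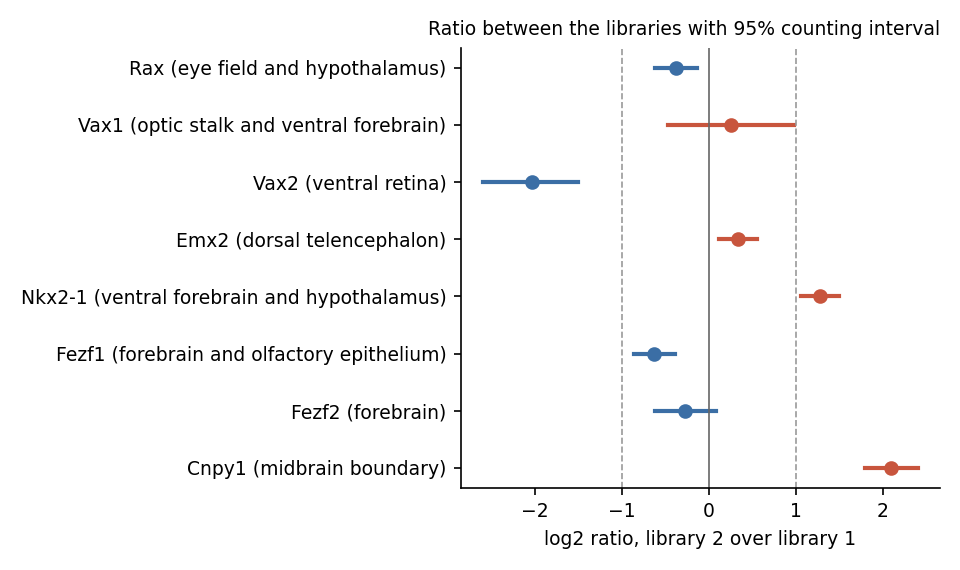
Log2 ratio of each gene, library 2 over library 1, with points for the ratio of TMM-scaled counts and bars for the 95% interval; dashed lines mark 2-fold. Vax2 lies at -2.04, Nkx2-1 at 1.28 and Cnpy1 at 2.10, and the bars of Vax1 and Fezf2 cross 0.

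Among the regulators of the eye, the ventral retina gene was several-fold higher in library 1 and the early eye field gene only slightly so. Rax (ENSMUSG00000024518.3, chromosome 18, 65928277 to 65939787, minus strand), the homeobox gene of the eye field that also acts in the hypothalamus, stood at 10.3 TPM in library 1 and 7.76 TPM in library 2. Its mean was 9.02 ± 1.78 TPM (SD, n = 2), from 331 and 254 reads, and it was 1.30-fold higher in library 1 (1.10 to 1.54). Vax2 (ENSMUSG00000034777.2, chromosome 6, 83711264 to 83738313, plus strand), the homeobox gene of the ventral retina, stood at 6.32 TPM in library 1 and 1.51 TPM in library 2. With 148 and 36 reads it was 4.10-fold higher in library 1 (2.84 to 6.08), and of 13739 genes only 16 had a larger ratio in that direction. Its mean was 3.92 ± 3.40 TPM, so that the SD nearly equalled the mean.

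Vax1 (ENSMUSG00000006270.7, chromosome 19, 59166187 to 59170056, minus strand), its paralog in optic stalk and ventral forebrain, was the lowest of the 8 genes. It stood at 1.65 TPM in library 1 and 1.93 TPM in library 2, a mean of 1.79 ± 0.198 TPM. With 32 and 38 reads a difference was not detectable at this depth, the ratio being 1.19-fold toward library 2 (0.724 to 1.97). Vax2 exceeded Vax1 by 3.83 times in library 1. In library 2 the ratio was 0.782 times, from 36 reads of Vax2 and 38 of Vax1, too few to order the paralogs there. The balance of Rax and Vax2 also moved, with 1.63 times as much Rax as Vax2 in library 1 and 5.14 times in library 2.

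Most genes of the eye leaned toward library 1, as Rax and Vax2 did and Vax1 did not. In the retina and eye field list, fixed with earlier results known and without the 8 genes, 6 of 8 were detected in both libraries. Its summed level was 78.7 TPM in library 1 and 58.2 TPM in library 2, and 7 of 8 members were higher in library 1, at a median log2 ratio of -0.61. Of the 6 past the count and level filter, the interval excluded 1 toward library 1 for 3 and toward library 2 for 1. Pax6, needed for eye and nasal placode, stood at 19.98 and 10.47 TPM and was 1.76-fold (1.58 to 1.97) higher in library 1, while Six3, a partner of Rax in the eye field and forebrain that was named after its values were seen, differed by 1.09-fold (0.949 to 1.26). Fgf15, a growth factor gene of retina, diencephalon and midbrain, led the list at 17.6 and 19.4 TPM and was the exception, 1.13-fold (1.01 to 1.26) higher in library 2.

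Most lens and pigment markers, which are not neural retina, were lower in library 2 as well. The 9 lens genes summed to 193 and 37.5 TPM, a ratio of 5.14-fold toward library 1, and 7 of the 8 with at least 20 counts were higher there. Among them the alpha-crystallin gene Cryaa differed by 8.99-fold (7.96 to 10.2), the beta-crystallin gene Cryba1 by 5.55-fold (4.54 to 6.84) and the gamma-crystallin gene Crygc by 11.0-fold (5.56 to 24.7). The 8 pigment genes summed to 80.3 and 35.8 TPM, a ratio of 2.25-fold, and all 8 were higher in library 1. Tyrp1 and Tyr, enzymes of melanin synthesis, differed by 3.01-fold (2.27 to 4.04) and 2.44-fold (1.95 to 3.07), and Pmel and Dct led the list in level. In bulk tissue, fewer cells of a type and less RNA per cell cannot be told apart, and the part of eye tissue in the value of Vax2 was not tested.

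Reads of these genes were nearly all assigned without ambiguity. The posterior SD of the count, the quantifier's own uncertainty, was 0 for Vax2 and Vax1 and at most 0.589% of the count for any of the 8. Antisense genes lie across some of them. Raxos1 overlaps 1604 exonic bases of Rax, taken over all its transcripts in the annotation, and held 7.03 and 2.69 reads. Reads of Rax were counted on Rax-201 alone, and the overlap with that transcript was not measured. Vax2os overlaps Vax2 by 938 bases but no exonic base, and held 29.5 and 13.5 reads, 2.18-fold (1.06 to 4.24) more in library 1. No source used here gives the strandedness of the libraries, so reads in an overlap may belong to either gene.

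Nkx2-1, a regulator of the ventral forebrain and hypothalamus, was more than 2-fold higher in library 2. Nkx2-1 (ENSMUSG00000001496.11, chromosome 12, 56531958 to 56536908, minus strand) is required for the basal telencephalon and hypothalamus, and also for thyroid and lung. It stood at 5.25 TPM in library 1 and 12.8 TPM in library 2, a mean of 9.04 ± 5.35 TPM. From 243 and 588 reads it was 2.42-fold (2.08 to 2.83) higher in library 2, ranking 44 of 13739 genes in that direction. Against Rax, which shares the hypothalamus with it, the level was 0.511 times in library 1 and 1.65 times in library 2.

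The annotated transcripts of Nkx2-1 gave unlike ratios. Nkx2-1-202, of 2 exons and starting at base 56535106, took 79.5% of the TPM of the gene in library 1 and 90.3% in library 2. Its expected counts were 183 and 517, a ratio of 2.83-fold (2.39 to 3.37). Nkx2-1-201, of 3 exons and starting upstream at base 56536908, held 59.9 and 70.6, a ratio of 1.18-fold (0.829 to 1.70). The posterior SD of both was 15.1 counts in library 1 and 14.3 in library 2, and their sequences overlap in the annotation. The 2 intervals do not overlap, but the difference between the transcripts was not tested. The promoter window of the upstream start, from RefSeq on GRCm38.p6 (chr12:56536859-56537158, minus strand, 250 bases before the start and 50 after), is shown because the transcript that begins there carried little of the difference between pools.
Nkx2-1 upstream start: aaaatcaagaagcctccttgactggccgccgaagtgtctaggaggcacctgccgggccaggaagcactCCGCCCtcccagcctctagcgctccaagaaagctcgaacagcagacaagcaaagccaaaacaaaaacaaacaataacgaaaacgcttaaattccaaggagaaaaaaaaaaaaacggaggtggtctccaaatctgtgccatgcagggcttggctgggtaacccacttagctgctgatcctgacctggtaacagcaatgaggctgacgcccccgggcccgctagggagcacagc
Capitals here and below mark matches on either strand. The motifs searched were the GC box (letters GGGCGG), the CCAAT box, the box with letters TATAAA, and the homeodomain palindrome with letters TAATTA. Of 32851 RefSeq promoter windows, 35.7% hold the GC box, 37.4% the CCAAT box, 13.6% TATAAA and 5.29% the palindrome. The Nkx2-1 window holds a GC box on the strand opposite to the printed one, where it reads CCGCCC. Such matches describe letters and not binding, and RefSeq windows were matched for 6 of the 8 genes, with Cnpy1 having a pair.

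Other genes of the hypothalamus stood on both sides of even. Of 10 listed genes, 3 were detected in both libraries, the summed level was 23.0 TPM in library 1 and 24.1 TPM in library 2, and the median log2 ratio was -0.12, opposite in sign to the ratio of the sums. Pomc, the precursor of melanocortin peptides, led at 7.95 and 11.6 TPM and was 1.49-fold (1.20 to 1.85) higher in library 2. Otp, a homeobox gene of neurosecretory neurons, went the other way at 1.95 and 0.45 TPM, 4.24-fold (2.70 to 6.92) higher in library 1. Fgf10 was close to even at 7.4 and 8.01 TPM, and it is also a gene of facial mesenchyme. The paralogs Nkx2-2 and Nkx2-4 lay below Nkx2-1, at 3.17 and 2.09 TPM and at 0.420 and 0.770 TPM, and both intervals included 1.

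Markers of the ventral telencephalon had sums of 17.9 and 19.1 TPM, with 6 of 7 detected, 5 of 7 higher in library 2 and 0 at 2-fold. For 0 of the 6 past the count and level filter did the interval exclude 1. Gsx2, a homeobox gene of ventral telencephalic progenitors named after its values were seen, had 20 and 37 reads and was 1.85-fold (1.05 to 3.37) higher in library 2. Gad2, an enzyme of GABA synthesis, had 167 and 155 reads but 1.99 and 2.66 TPM, so its scaled count and its TPM pointed to opposite libraries. Olig2, a progenitor gene of the ventral neural tube, stood at 1.81 and 2.11 TPM. Thyroid and lung, the other sites of Nkx2-1, had 2 of 7 markers detected and sums of 5.45 and 4.73 TPM. Hhex and Foxe1, early thyroid regulators that other tissues also express, stood at 2.98 and 2.88 TPM and at 1.08 and 1.15 TPM. The lung surfactant gene Sftpc, also named after its values were seen, drew 0 reads from each pool, so that 3 reads, or 0.208 and 0.204 TPM, bound its level. The sums of these lists did not reach the 2.42-fold ratio of Nkx2-1, and the part of any region in its value was not tested.

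**Figure D3:**
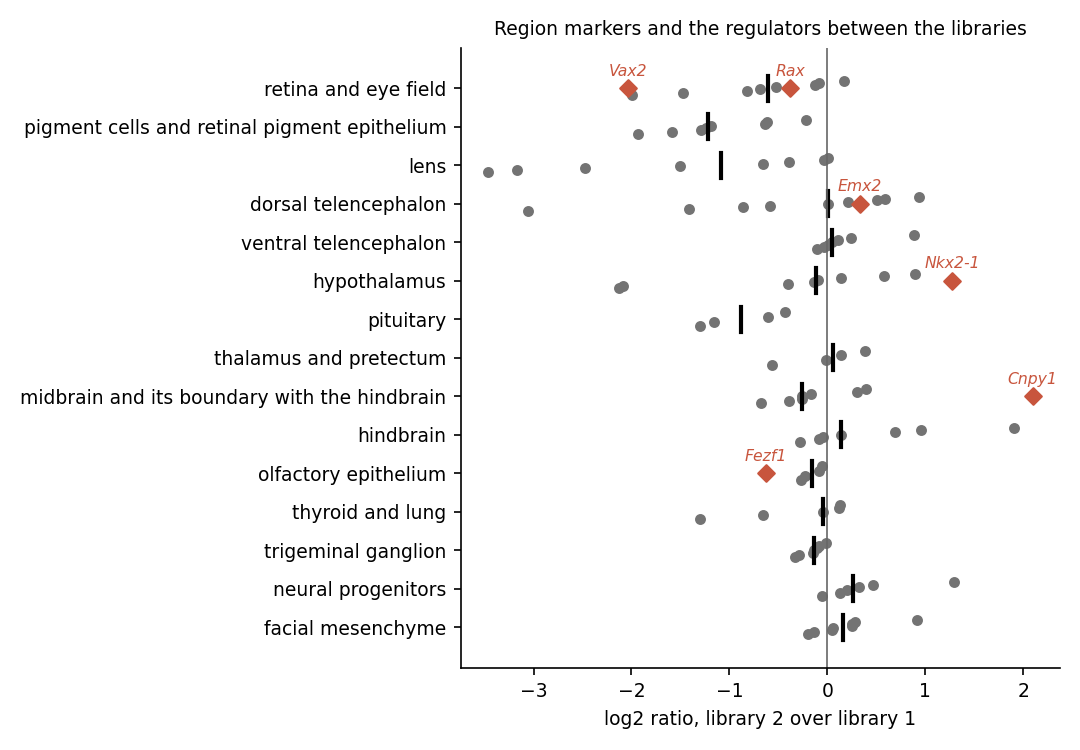
Log2 ratio, library 2 over library 1, of region marker genes with at least 20 counts (grey points, a black bar at each list's median) and of 6 of the regulators (diamonds) placed in the list of their best known region. Lens, pigment and pituitary medians lie left of 0, while Nkx2-1 and Cnpy1 lie right of every plotted point of their own lists. En2 (3.59) and Pax5 (2.61), listed with Cnpy1, have fewer than 20 counts and are not plotted, though their ratios exceed that of Cnpy1.

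Emx2, a regulator of the dorsal forebrain, differed little between pools, and the part of dorsal forebrain in its value was not tested. Emx2 (ENSMUSG00000043969.4, chromosome 19, 59458372 to 59465357, plus strand), a homeobox gene of cortex and hippocampus that is also active in olfactory and urogenital tissue, stood at 8.02 TPM in library 1 and 9.64 TPM in library 2. The mean was 8.83 ± 1.15 TPM, and from 304 and 382 reads it was 1.26-fold (1.08 to 1.47) higher in library 2. Its paralog Emx1, a marker of the cortex itself, was near the lower end of the table at 0.420 and 0.660 TPM with 12 and 18 reads. Of 10 listed dorsal telencephalon genes, 7 stayed below 1 TPM in both libraries, and the sums of 15.4 and 10.6 TPM went with a median log2 ratio of 0.00. Neurog2, a proneural gene of cortex and of cranial ganglia, was 2.66-fold (2.14 to 3.31) higher in library 1 at 7.2 and 2.66 TPM, and Dmrt3 1.82-fold (1.30 to 2.57) higher in library 1.

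The transcripts of Emx2 kept nearly the same shares in both pools. Emx2-202, starting at base 59459519, took 72.4% and 68.5% of the gene's TPM, and Emx2-201, starting at base 59458372, 27.6% and 31.5%. Emx2os, an antisense transcript, begins at base 59458635 on the minus strand and overlaps 264 exonic bases of Emx2. It held 189 and 225 reads, at 1.87 and 2.19 TPM, and its ratio of 1.19-fold toward library 2 (0.978 to 1.45) lay near that of Emx2. The start region (chr19:59458440-59458739, plus strand, RefSeq on GRCm38.p6) is shown because it holds the annotated start of Emx2os as well as the RefSeq start of Emx2. The annotated starts of Emx2-201 and Emx2-202 lie outside it.
Emx2 start: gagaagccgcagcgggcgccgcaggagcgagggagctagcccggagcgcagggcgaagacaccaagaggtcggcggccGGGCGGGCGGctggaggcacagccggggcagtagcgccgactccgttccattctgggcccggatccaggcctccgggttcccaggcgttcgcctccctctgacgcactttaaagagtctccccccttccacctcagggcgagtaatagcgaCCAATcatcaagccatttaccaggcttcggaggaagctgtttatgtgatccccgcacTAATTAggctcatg
It is GC-rich at 64.3%, against a median of 52.7% over all windows. It holds a pair of GGGCGG matches that overlap each other, a CCAAT box 21 bases before the RefSeq start and a TAATTA match after it.

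Of Fezf1 and Fezf2, zinc finger repressors of the rostral forebrain, Fezf1 was higher in library 1 and the difference of Fezf2 lay within counting error. Fezf1 (ENSMUSG00000029697.5, chromosome 6, 23245044 to 23248362, minus strand), which is also required in olfactory sensory neurons, stood at 8.35 TPM in library 1 and 5.29 TPM in library 2, a mean of 6.82 ± 2.16 TPM. With 378 and 244 reads it was 1.55-fold (1.31 to 1.82) higher in library 1. Fezf2 (ENSMUSG00000021743.5, chromosome 14, 12342094 to 12348189, minus strand), which later specifies corticospinal neurons, stood at 3.34 and 2.72 TPM, a mean of 3.03 ± 0.438 TPM. With 151 and 125 reads, the interval of its ratio included 1, at 1.21-fold (0.945 to 1.54) toward library 1. Fezf1 exceeded Fezf2 by 2.50 times in library 1 and 1.94 times in library 2.

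Most olfactory genes, which share a site with Fezf1, were slightly higher in library 1. The 6 listed genes summed to 64.1 TPM in library 1 and 56.4 TPM in library 2, and the 4 with at least 20 counts were all higher in library 1, by 1.04-fold to 1.20-fold. Their difference from Fezf1 was not tested. Ebf2, a transcription factor of olfactory neurons and other tissues, differed by 1.06-fold (1.00 to 1.12) and Neurod1, a neuronal differentiation gene shared with cranial ganglia, by 1.17-fold (1.08 to 1.28). Neurog1, a proneural gene of olfactory and trigeminal neurons, was at 8.07 and 6.57 TPM. The trigeminal ganglion list, 7 genes, summed to 97.6 and 81.5 TPM, and all 7 were higher in library 1. Of the 5 past the count and level filter, the interval excluded 1 for 2. The part of olfactory or ganglion tissue in the value of Fezf1 was not tested.

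Cnpy1 showed the largest ratio of the 8 genes, and toward library 2. Cnpy1 (ENSMUSG00000044681.14, chromosome 5, 28200819 to 28245806, minus strand) is no forebrain or eye field gene by its known role: in zebrafish, its product promotes FGF signalling at the boundary of midbrain and hindbrain. It stood at 2.25 TPM in library 1 and 10.1 TPM in library 2, a mean of 6.18 ± 5.56 TPM. From 112 and 478 reads it was 4.27-fold (3.47 to 5.30) higher in library 2, ranking 16 of 13739 genes in that direction. The other canopy genes, which act in most cells, did not differ so, with Cnpy2 at 176 and 167 TPM, Cnpy3 at 41.7 and 39.2 TPM and Cnpy4 at 46.6 and 42.4 TPM.

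Both groups of Cnpy1 start sites were higher in library 2. The annotation places 3 transcripts between bases 28210022 and 28210363, and 2 others at 28237873 and 28245806. Transcripts of the first group held 44.6 and 238 expected counts, a ratio of 5.36-fold (3.84 to 7.46), and those of the distal group 67.4 and 239.7, a ratio of 3.56-fold (2.73 to 4.78). The intervals overlap, and the difference between the groups was not tested. Cnpy1-202, of the first group, took 42.9% of the TPM of the gene in library 1 and 59.9% in library 2, and the distal Cnpy1-205 48.5% and 36.0%. Cnpy1-201 held 6.12% in library 1, from 7.23 expected counts, and none in library 2. The deposited length of Cnpy1-205, 3004 nt, differs from the 3018 nt of the annotation used for positions, so its ends may differ by release, as may those of Rax, Fezf1 and Fezf2. The start regions (RefSeq on GRCm38.p6, minus strand) are chr5:28210119-28210418 for the first group and chr5:28245739-28246038 for the distal one, shown to compare the composition of the starts that RefSeq gives. The first is set on the start of Cnpy1-201, at base 28210168. The start of Cnpy1-202, which took most expected counts of its group (37.3 in library 1 and 238 in library 2), lies outside it. The distal window holds the start of Cnpy1-205.
Cnpy1 start nearer the 3 prime end: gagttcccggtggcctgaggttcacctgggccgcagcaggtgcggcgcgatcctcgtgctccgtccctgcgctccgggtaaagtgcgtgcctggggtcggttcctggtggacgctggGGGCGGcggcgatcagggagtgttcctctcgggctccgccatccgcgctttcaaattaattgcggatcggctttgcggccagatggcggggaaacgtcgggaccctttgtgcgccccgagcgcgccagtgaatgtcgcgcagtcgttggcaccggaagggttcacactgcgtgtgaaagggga
Cnpy1 distal start: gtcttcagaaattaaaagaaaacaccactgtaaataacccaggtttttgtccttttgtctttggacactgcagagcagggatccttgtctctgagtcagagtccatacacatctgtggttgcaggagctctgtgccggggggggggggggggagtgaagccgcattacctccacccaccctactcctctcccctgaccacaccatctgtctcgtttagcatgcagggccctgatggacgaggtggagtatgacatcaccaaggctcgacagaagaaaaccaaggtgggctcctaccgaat
They differ in composition, with 66.3% GC and 34 CpG dinucleotides in the window nearer the 3 prime end against 53.0% and 6 in the distal one. The medians over all windows were 52.7% and 7. The first window holds a GC box, and no searched motif is found in the distal one.

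**Figure D4:**
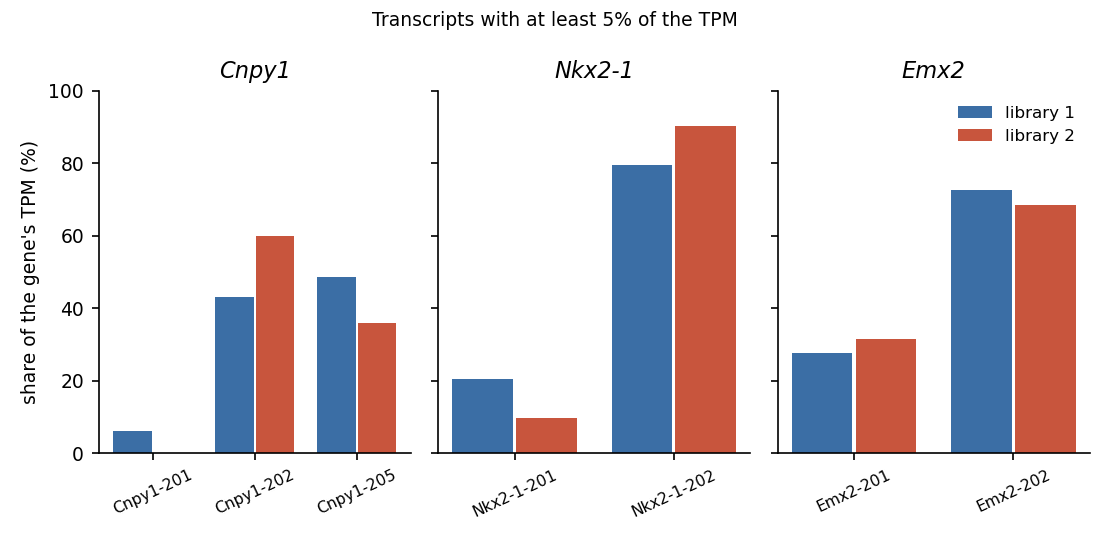
Share of the gene's TPM, in percent, taken by each transcript with at least 5% of it in a library, for Cnpy1, Nkx2-1 and Emx2 (bars, library 1 and library 2). Cnpy1-202 and Nkx2-1-202 took larger shares in library 2, and the shares of Emx2 moved by less than 5 percentage points.

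The other listed genes of the midbrain and its boundary with the hindbrain split between the pools. Of 9 genes, 2 were detected in both libraries, the sums were 20.8 and 23.5 TPM, and 5 of the 7 with at least 20 counts were higher in library 1, at a median log2 ratio of -0.25, opposite in sign to the ratio of the sums. For 0 of those 5 did the interval exclude 1. Otx2, a regulator of forebrain and midbrain also active in eye and nasal tissue, stood at 11.99 and 15.12 TPM and was 1.23-fold (1.09 to 1.39) higher in library 2. Fgf17, an FGF ligand of the boundary and of the rostral forebrain, stood at 4.51 and 3.95 TPM. En2 and Pax5, boundary genes chosen for mention after their values were seen, had 1 and 12 reads and 2 and 12.2 reads. Both fell below 20 counts, so the median leaves them out. Their ratios toward library 2 were 12.02-fold (1.78 to 514) and 6.13-fold (1.34 to 55.3). En1, with 41 and 54 reads, was also chosen in that way, and differed by 1.32-fold (0.863 to 2.03). With counts this low, the boundary tissue in either pool could not be sized, and its part in the value of Cnpy1 was not tested.

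Neural progenitor genes as a whole were slightly higher in library 2. All 6 listed were detected, with sums of 212 and 244 TPM, and 5 of 6 were higher in library 2, at a median log2 ratio of 0.26. Sox3, a progenitor gene of the neural tube including the hypothalamus, was 2.46-fold (1.72 to 3.58) higher there at 1.09 and 2.63 TPM, Hes5, a Notch target, 1.39-fold (1.25 to 1.54) and Fabp7, a radial glia gene, 1.15-fold (1.09 to 1.22). The facial mesenchyme sums differed by 1.04-fold in the same direction.

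Among 67 measured region markers, the nearest in ratio to each regulator crossed regions. Likeness here is the difference between log2 ratios of a single pair of libraries, so it is a weak measure. For Vax2 (-2.04) the nearest were Otp (-2.09), Cryba1 (-2.47) and Tyrp1 (-1.59). For Nkx2-1 (1.28) they were Sox3 (1.30), Barx1 (0.92), a homeobox gene of jaw mesenchyme, and Pomc (0.57). The nearest to Cnpy1 (2.10) was also Sox3, 0.80 away. For Fezf1 (-0.63) they were Otx1 (-0.64), Prox1 (-0.66) and Olig3 (-0.56), and for Emx2 (0.33) Sox1 (0.32), Otx2 (0.30) and Gbx2 (0.38). Rax (-0.38) lay beside Cryab (-0.39), Prrxl1 (-0.33) and Tlx3 (-0.29), Fezf2 (-0.27) beside Neurog1 (-0.27) and Tlx3, and Vax1 (0.25) beside Dlx5 (0.25), Olig2 (0.25) and Twist1 (0.26).

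**Figure D5:**
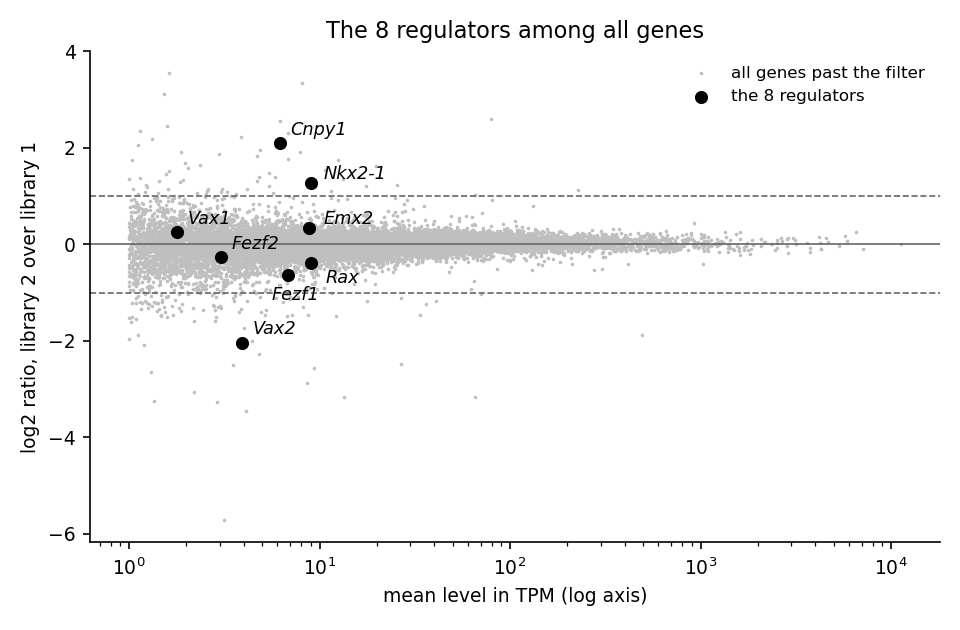
Mean level in TPM (log axis) against the log2 ratio, library 2 over library 1, of the 13739 genes past the filter (grey) and of the 8 regulators (black, named); dashed lines mark 2-fold. Cnpy1, Nkx2-1 and Vax2 lie outside the band that holds most genes of their level, and the other regulators lie inside the dashed lines.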

How the data were processed

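Total RNA was sequenced in 2 libraries of facial prominences, 1 group. Per the notes deposited with the files, the authors quantified each library against GENCODE M4 on mm10 from a transcriptome alignment. No source used here names the tool, its version or the strandedness. Per the file headers, the deposited expected counts are estimated reads per gene or transcript, not normalized, and the posterior SD of a count is a score of its uncertainty. TPM was computed by the authors over every entry, spike-ins included, and the isoform share is the authors' percent of a gene's TPM.

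GENCODE M21, of the same assembly, gave symbols and positions and named 42462 of 43346 genes. The members, lists and rules were chosen with earlier results of these data known. Ratios used expected counts rounded for TMM scaling (edgeR 4.0.16, R 4.3.3), with no prior count, and the Clopper-Pearson interval at 95% (scipy 1.17.1). Ratios and intervals were tested on simulated counts that held counting error alone, so that test does not cover variation between pools. The design has 1 library on each side, so neither edgeR's test nor DESeq2's was run, and DESeq2 1.42.0 gave size factors alone.

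Named genes were all 8 members, genes overlapping them, paralogs, the 3 listed genes nearest in ratio, transcripts of at least 5%, and from each list the 2 highest and the 2 with the largest ratio. Not every gene the rule allows is printed, and a few listed genes are not reported here. Alternatives were other scalings, thresholds, posterior means, TPM over annotated genes and leaving out each library.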

Additional observations from a re-analysis of the deposited data

How the results depend on the processing

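The 8 regulators stayed detected with posterior means. They also did at 0.5 TPM, with rescaled TPM over annotated genes and in each library alone (8 of 8 without replicate 1 and without replicate 2). These last settings can only keep or add genes, so their outcome was fixed by the main result. At 2 TPM in both libraries 6 remained, since Vax1 and a library of Vax2 lay below it. All 40 recomputed log2 ratios of the 8 genes, under DESeq2 size factors, total counts, spike-in counts, posterior mean counts and the ratio of deposited TPM, lay inside the interval given in the report. Cnpy1 ranged from 2.03 to 2.17, Nkx2-1 from 1.21 to 1.29 and Vax2 from -2.10 to -2.04, and 3 of 8 genes passed 2-fold under each scaling and count filter. The background of genes at a mean of 1 to 20 TPM was added after seeing the data. TPM rescaled over annotated genes raised each mean, to more than 1 SD away for Vax1 (2.12 TPM), Emx2 (10.5 TPM) and Fezf2 (3.59 TPM), because spike-ins leave the total. The posterior mean of Vax1 was 2.25 TPM, with 78.1% on its dominant transcript, since the posterior gives weight to a short transcript with no expected count. Without replicate 1 and without replicate 2, the means became the values of the other library, from 1.51 to 12.8 TPM over the 8 genes. List sums depend on the summary, and 29 of 45 recomputed values moved past their counting interval. In log2, the hypothalamus ratio went from 0.06 for the sums to -0.28 without its most abundant gene, and the midbrain ratio from 0.18 to -0.25 for the median. Without Cryaa the lens list stood at -1.60. No paired analysis was possible because there is 1 group. A library left out leaves no ratio. Depth limits Vax1, with 32 and 38 reads, and the markers of cortex and midbrain below 1 TPM.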

Other observations

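Pituitary genes, which mark the pouch that lies against the hypothalamus and the roof of the mouth, summed to 7.75 TPM in library 1 and 4.59 TPM in library 2 over 6 listed genes. The 4 with at least 20 counts were higher in library 1. Hesx1, an early regulator of forebrain and pituitary, had 47 and 19 reads and was 2.47-fold (1.42 to 4.46) higher in library 1, and Lhx3, a homeobox gene of the pouch, had 98 and 44 and was 2.22-fold (1.54 to 3.25) higher. Cga, a subunit of pituitary hormones, stood at 2.41 and 1.55 TPM.

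Sim1, Wnt8b and Hoxb1 were chosen after their values were seen. Sim1, a regulator of the same hypothalamic neurons as Otp, had 118 and 27 reads, 4.36-fold (2.85 to 6.90) more in library 1. Wnt8b, a WNT ligand of the dorsomedial forebrain, had 25 and 3 reads, a ratio of 8.32-fold (2.54 to 43.0). Hoxb1, the Hox gene of the fourth rhombomere, had 8 and 30 reads, 3.76-fold (1.68 to 9.48) more in library 2, while the hindbrain list summed to 10.4 and 10.6 TPM. All intervals cover counting error only.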
